A study of Rattus norvegicus with 30 samples.

Results

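Fatty acid oxidation genes and targets of the nuclear receptor PPARalpha were followed in rat hepatocytes exposed to chlorpromazine, a phenothiazine antipsychotic drug. The set was a list of 37 gene symbols. Of these, 36 had a probe set assigned to a single gene, and Acaa1a, the peroxisomal thiolase, had none. Acot1, a cytosolic acyl-CoA thioesterase, lay below the filter on low signals, so 35 of the 37 genes were tested, among 11503 genes tested in all.

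The cells were cryopreserved male Sprague Dawley hepatocytes, plated on collagen, overlaid with Matrigel and dosed on day 3 of culture. Each of 30 arrays held RNA from 1 culture well, with 5 wells in each of 6 groups. Cultures received 20 µM chlorpromazine HCl, 0.8 µM chlorpromazine HCl or the DMSO vehicle, labelled 1% DMSO, and were harvested 48 or 24 h later. The dosing solutions of treated cultures contained DMSO too, so all groups share that solvent. The wells are separate cultures, but the number of animals behind the cells is not given in the sources used here, so p-values measure the spread between wells.

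Fatty acids enter hepatocytes, are bound by carriers, activated to acyl-CoA and passed into mitochondria as carnitine esters, where each turn of the beta oxidation spiral removes an acetyl unit. Peroxisomes shorten very long chains, and microsomal enzymes oxidise the omega end. PPARalpha, bound to DNA as a partner of the retinoid X receptor, is the main fatty acid sensor of the liver and switches on genes of all these routes in fasting, and rodent livers respond to its drug ligands with growth of the peroxisome compartment.

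The values below are log2 signals of 1 probe set per gene, with 5 arrays per group, and a change is a difference of group means on that scale with its standard error. A gene is said to have risen or fallen where the moderated test of limma, adjusted over all 11503 genes, gave an adjusted p under 0.05. Median signals of the 30 arrays ran from 380 to 449, and an array correlated on average at 0.957 to 0.968 with the others of its group. Hepatocyte markers were at high levels in all groups, with a mean log2 signal over 8 measured markers between 15.2 and 15.9 on every array. In vehicle this mean ran from 15.33 to 15.58 at 48 h and from 15.62 to 15.88 at 24 h, without overlap between the times. At 20 µM it ran from 15.21 to 15.44 at 48 h and from 15.43 to 15.86 at 24 h, overlapping vehicle of the same time. Of these markers, Alb, Ttr, Apoa1, Serpina1 and Hnf4a did not pass the test at 20 µM at either time, whereas Apoa2, Tat and Fgb fell at 48 h, with log2 changes of -0.45, -0.43 and -0.25, and Apoa2 also fell at 24 h, with a change of -0.20. Krt19, a marker of bile duct cells with a low mean log2 signal of 7.80, fell at 24 h with a change of -1.28 (adjusted p = 0.00683). At 48 h the change of Krt19 was -0.29 (adjusted p = 0.583). Epcam, the other bile duct marker that passed the filter, had changes of 0.04 at 48 h (adjusted p = 0.659) and 0.08 at 24 h (adjusted p = 0.343). Its mean log2 signal was far higher than that of Krt19, at 13.3, while Krt7, a further bile duct marker, lay below the filter at 4.65. Whether Epcam signal came from bile duct cells was not tested. The part of bile duct cells in the results at 24 h was not tested. In cultures measured as a whole, fewer cells of a type and less RNA per cell cannot be told apart. Array numbers ran through the 6 groups in the same order each time, so the position in that order and the group cannot be told apart. One vehicle array, replicate 2 of the 24 h group, has a title that reads 2 h and a time entry that reads 24 h. It was used as a 24 h array, and results at 24 h are also given without it.

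At 20 µM and 48 h, 31 of the 35 member genes fell and none rose, against 14.9% of all genes that fell and 20.3% that rose. At 24 h, 25 members fell and none rose, against 10.4% and 13.4% of all genes, and 24 members fell without vehicle replicate 2. Each of the 25 was also among the 31. At an unadjusted p under 0.05, no member was higher at 48 h and 1, the mitochondrial thioesterase Acot2, was higher at 24 h, against 24.6% and 18.7% of all genes. The median member change was -0.61 at 48 h and -0.45 at 24 h, beside 0.04 and 0.01 over all genes. All 5 arrays at 20 µM lay below all 5 vehicle arrays for 28 members at 48 h, against 11.2% of all genes, and for 23 members at 24 h, against 7.55%. Falls of at least 2-fold were found for 10 members at 48 h and 4 at 24 h, where 2.05% and 0.609% of all genes fell by as much. These 10 were Cyp4a1, Bbox1, Acsm3, Fabp1, Angptl4, Ehhadh, Bdh1, Pdk4, Cd36 and Acaa2, and the 4 at 24 h were Bbox1, Acsm3, Cyp4a1 and Bdh1. The plot of all member changes shows that the sizes differed widely within a route: single enzymes and carriers fell several fold while most enzymes of the mitochondrial spiral fell by less than 2-fold.

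**Figure D1:**
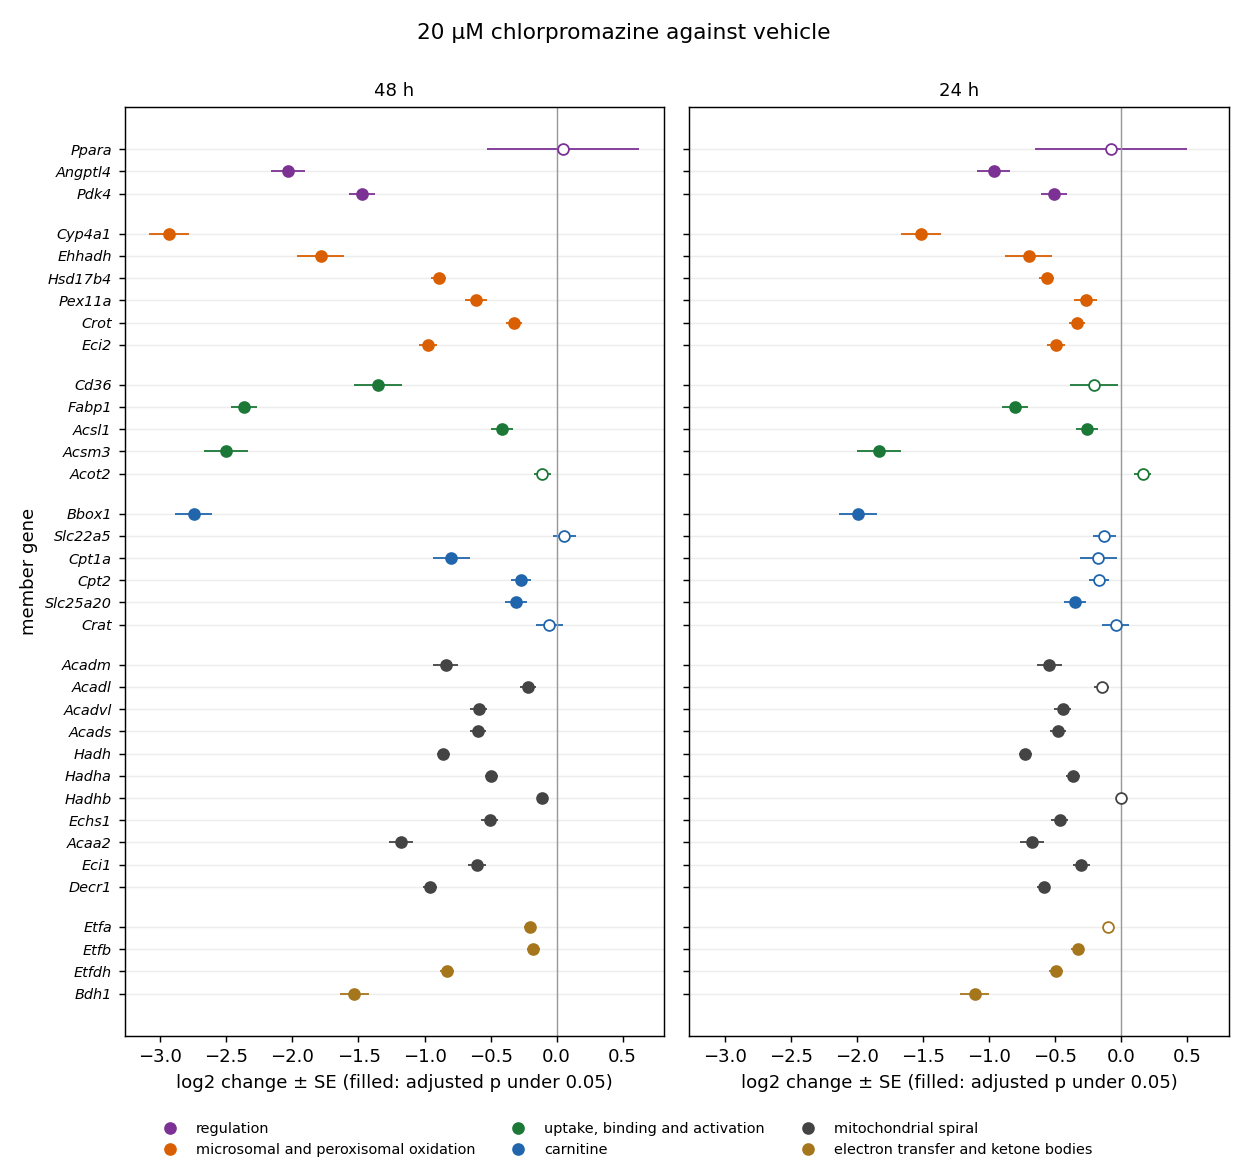
Change of each of the 35 tested member genes (rows, coloured by role) at 20 µM chlorpromazine against vehicle, at 48 h (left) and 24 h (right). Points are log2 changes, bars their standard errors, filled points have an adjusted p under 0.05. At 48 h the changes run from -2.93 for Cyp4a1 to 0.06 for Slc22a5, and no filled point lies above 0.

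Of the 3 regulatory members, Angptl4 and Pdk4 fell at both times and Ppara did not pass the test. Ppara itself, the receptor gene, was dim: its log2 signals were 6.00, 6.61, 6.89, 6.90 and 8.48 at 20 µM and 6.58, 6.86, 6.90, 6.99 and 7.30 in vehicle at 48 h. These groups overlapped, and their means lay below the 40th percentile of the arrays. The change of Ppara was 0.05 ± 0.57 at 48 h, with a 95% interval from -1.12 to 1.22, and -0.08 ± 0.57 at 24 h, from -1.25 to 1.09, so changes of up to about that size were not detectable with this probe set. The sign of the Ppara change turned when single arrays were left out.

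Angptl4, a secreted inhibitor of lipoprotein lipase and a classical PPARalpha target, had log2 signals of 10.50, 10.60, 10.72, 10.93 and 10.99 at 20 µM, against 12.69, 12.74, 12.77, 12.80 and 12.92 in vehicle at 48 h. At 24 h they were 11.27, 11.50, 11.56, 11.61 and 11.71 at 20 µM, against 12.16, 12.32, 12.38, 12.78 and 12.85 in vehicle. The groups did not overlap at either time. Angptl4 fell by 2.03 ± 0.13 at 48 h (4.10-fold, adjusted p = 2.09e-14) and fell by 0.97 ± 0.13 at 24 h (adjusted p = 4.73e-07).

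Pdk4, a kinase that switches off pyruvate dehydrogenase and so spares glucose when fat is burned, measured 10.17, 10.26, 10.48, 10.52 and 10.62 at 20 µM, against a lowest value of 11.73 and a median of 11.87 in vehicle at 48 h. At 24 h the signals were 11.01, 11.05, 11.14, 11.17 and 11.22 at 20 µM, against 11.34, 11.52, 11.60, 11.76 and 11.93 in vehicle. All treated arrays lay below all vehicle arrays at both times. Pdk4 fell by 1.48 ± 0.10 at 48 h (adjusted p = 1.12e-13) and fell by 0.51 ± 0.10 at 24 h (adjusted p = 0.000158). Its other probe set differed in size: the change there was -0.31 ± 0.13 at 48 h (adjusted p = 0.0592) and -0.15 ± 0.13 at 24 h (adjusted p = 0.483). Averaged over both probe sets, the change of Pdk4 was -0.89 at 48 h and -0.33 at 24 h.

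Among the genes of microsomal and peroxisomal oxidation, all 6 tested fell at both times, against 14.9% of all genes at 48 h and 10.4% at 24 h. Cyp4a1, the microsomal fatty acid omega hydroxylase by which PPARalpha activation is often read in rats, had log2 signals of 9.94, 10.34, 10.34, 10.54 and 10.68 at 20 µM, against 13.11, 13.31, 13.34, 13.35 and 13.41 in vehicle at 48 h. At 24 h the values were 10.52, 10.94, 10.96, 10.99 and 11.05 at 20 µM, against 12.07, 12.23, 12.25, 12.67 and 12.81 in vehicle. There was no overlap at either time, and the fall of Cyp4a1 at 48 h was the largest among the 35 members. Cyp4a1 fell by 2.93 ± 0.15 at 48 h (7.65-fold, adjusted p = 3e-16) and fell by 1.52 ± 0.15 at 24 h (2.86-fold, adjusted p = 3.61e-09).

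Ehhadh, the peroxisomal bifunctional enzyme of straight-chain acyl-CoA oxidation, had log2 signals of 8.88, 8.99, 9.29, 9.40 and 9.48 at 20 µM, against 10.84, 10.93, 10.97, 11.01 and 11.22 in vehicle at 48 h. The groups were apart at 48 h, whereas at 24 h the highest array at 20 µM (9.94) lay above the lowest vehicle array (9.80). Ehhadh fell by 1.79 ± 0.18 at 48 h (3.45-fold, adjusted p = 6.86e-10) and fell by 0.70 ± 0.18 at 24 h (adjusted p = 0.00287). Hsd17b4, the bifunctional enzyme of the branched-chain and bile acid branch, fell at both times, with changes of -0.89 ± 0.06 and -0.57 ± 0.06 at 48 and 24 h. Eci2, an enoyl-CoA isomerase of peroxisomes that handles unsaturated chains, fell at both times, with changes of -0.98 ± 0.07 and -0.50 ± 0.07 at 48 and 24 h.

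Smaller falls were measured for the other peroxisomal members. Pex11a, which takes part in peroxisome division, fell by 0.61 ± 0.09 at 48 h and fell by 0.27 ± 0.09 at 24 h. The fall of Pex11a at 24 h did not pass without vehicle replicate 2 (adjusted p = 0.056), nor without vehicle replicate 4 or replicate 1, 2 or 4 at 20 µM (adjusted p between 0.0509 and 0.056), nor with arrays centred on their medians (adjusted p = 0.143). Crot, which makes carnitine esters of the medium-chain products of peroxisomes, fell by 0.32 ± 0.06 at 48 h and fell by 0.34 ± 0.06 at 24 h. A further probe set of Pex11a and one of Crot also fell at both times. Another, dim probe set of Crot had a change of -0.01 ± 0.37 at 48 h, and with all averaged the change of Crot at 48 h was -0.25 and did not pass (adjusted p = 0.105).

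Of 5 tested genes of uptake, binding and activation of fatty acids, 4 fell at 48 h and 3 at 24 h. Of all genes, 14.9% and 10.4% fell at these times. Fabp1, the liver fatty acid binding protein that carries fatty acids through the cytosol and is a known PPARalpha target, had log2 signals of 10.69, 11.23, 11.25, 11.26 and 11.45 at 20 µM, against 13.45, 13.54, 13.56, 13.57 and 13.62 in vehicle at 48 h. At 24 h its signals were 12.60, 12.63, 12.66, 12.67 and 12.76 at 20 µM, against 13.20, 13.50, 13.51, 13.57 and 13.58 in vehicle. The arrays at 20 µM were lower than every vehicle array at both times. Fabp1 fell by 2.37 ± 0.10 at 48 h (5.17-fold, adjusted p = 2.46e-18) and fell by 0.81 ± 0.10 at 24 h (1.75-fold, adjusted p = 1.6e-07).

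PPARalpha with its retinoid X receptor partner binds direct repeats of a core motif separated by a single base. RefSeq promoter entries (build GRCr8, 250 bases before to 50 after the annotated start) existed for 33 of the 37 members, with 34 entries in all, because Bbox1 had a pair of them. Cyp4a1, Acaa2, Acadl and Decr1 had no entry and were not searched. A relaxed form of the repeat, AGGNCANAGGNCA, was searched on both strands, with N standing for any base. It occurred in the Fabp1 entry and in no other member entry, and 0.415% of all 33469 promoter entries held it. The form with the full motif at both places, AGGTCANAGGTCA, occurred in no member entry and in 0.0538% of all entries. The 250 bases before the Fabp1 start (chr4:104749090-104749339, plus strand) are shown because Fabp1 was also the member with the largest fall among those that passed the test at 0.8 µM. Capitals mark the repeat, which lies on the opposite strand at -77 to -65 from the start.
Fabp1: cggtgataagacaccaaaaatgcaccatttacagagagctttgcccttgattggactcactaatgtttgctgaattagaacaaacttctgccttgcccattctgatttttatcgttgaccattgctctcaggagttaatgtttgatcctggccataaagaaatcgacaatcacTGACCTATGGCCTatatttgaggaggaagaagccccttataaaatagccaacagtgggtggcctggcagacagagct
The single core motif AGGTCA, which the stricter repeat holds at both places, was found on either strand in 9 of the 34 member entries and in 16.2% of all entries. Upstream examples from genes that fell at 20 µM are given with 10 bases on either side and the core motif in capitals, which in Eci1 is its reverse complement.
Acsm3 (chr1:183564593-183564618, plus strand): ctctctctgcAGGTCAaattctgtcc
Echs1 (chr1:204333584-204333609, minus strand): caccccgcccAGGTCAcgggtacatc
Eci1 (chr10:13961146-13961171, plus strand): tggctgatctTGACCTcctgaagggc
Acadvl (chr10:55236707-55236732, minus strand): acgggagaagAGGTCAgtggtcaagg
These matches describe letters in a short window, and binding of the receptor was not measured.

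Acsm3, an acyl-CoA synthetase for medium-chain acids, had log2 signals of 8.51, 8.61, 8.72, 8.97 and 8.99 at 20 µM, against 10.77, 11.24, 11.40, 11.43 and 11.48 in vehicle at 48 h. At 24 h they were 8.65, 9.01, 9.02, 9.07 and 9.36 at 20 µM, against 10.59, 10.62, 10.76, 10.98 and 11.34 in vehicle. The groups were well apart at both times. Acsm3 fell by 2.51 ± 0.17 at 48 h (5.68-fold, adjusted p = 1.12e-13) and fell by 1.84 ± 0.17 at 24 h (3.57-fold, adjusted p = 5.34e-10).

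Cd36, a membrane receptor that takes up fatty acids and oxidised lipoproteins, measured 10.69, 10.77, 10.94, 11.15 and 11.26 at 20 µM, against 12.25, 12.28, 12.31, 12.36 and 12.38 in vehicle at 48 h. At 24 h it measured 9.94, 9.99, 10.04, 10.06 and 10.33 at 20 µM, against 9.76, 10.02, 10.07, 10.63 and 10.92 in vehicle. Cd36 groups were apart at 48 h and overlapped at 24 h. Cd36 fell by 1.35 ± 0.18 at 48 h (2.55-fold, adjusted p = 3.56e-07), and its change at 24 h was -0.21 ± 0.18 (adjusted p = 0.468). The only Cd36 probe set is one that may detect several transcripts of the gene.

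Cd36 is also a gene of macrophages, and markers of these cells were measured beside it. Of 6 macrophage markers with a probe set, 5 passed the filter, and the exception was Adgre1. Mean log2 signals of the 5 ran from 7.84 for Ptprc to 10.49 for Cd68. The summed signal of all 6 ran from 3028 to 4111 at 20 µM, against 2279 to 2824 in vehicle at 48 h. At 24 h it ran from 3618 to 4132 at 20 µM, against 3312 to 4455 in vehicle. The mean log2 signal over all 6 ran from 7.97 to 8.61 at 20 µM, against 8.30 to 8.47 in vehicle at 48 h. On this scale the groups overlapped. Cd68, a lysosomal glycoprotein, rose by 1.44 at 48 h (adjusted p = 4.98e-11), while Cd163, Clec4f, Ptprc and Csf1r had changes between -0.35 and -0.21 that did not pass the test. The part of these cells in the Cd36 result was not tested.

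The remaining members of this role had smaller changes. Acsl1, the main long-chain acyl-CoA synthetase of liver, fell by 0.42 ± 0.08 at 48 h (adjusted p = 0.00018) and fell by 0.26 ± 0.08 at 24 h (adjusted p = 0.0207). A second probe set above the filter gave Acsl1 changes of -0.07 ± 0.21 and -0.41 ± 0.21 at 48 and 24 h, neither of which passed, and with both averaged the change at 48 h was -0.24 (adjusted p = 0.132). The Acsl1 call at 24 h was also lost when either of vehicle replicates 4 and 5 or replicate 1 at 20 µM was left out (adjusted p between 0.0621 and 0.0706), and with arrays centred on their medians (adjusted p = 0.163). The change of Acot2 was -0.11 ± 0.06 at 48 h (adjusted p = 0.21) and 0.16 ± 0.06 at 24 h (adjusted p = 0.0697). At 24 h Acot2 passed as higher without vehicle replicate 1 or 5, and with sets of 6 consecutive array numbers as a block. Further Acot2 probe sets had changes of -0.26 ± 0.12 and -0.30 ± 0.15 at 48 h. At 24 h their changes were 0.07 ± 0.12 and 0.32 ± 0.15, and none of these passed the test.

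**Figure D2:**
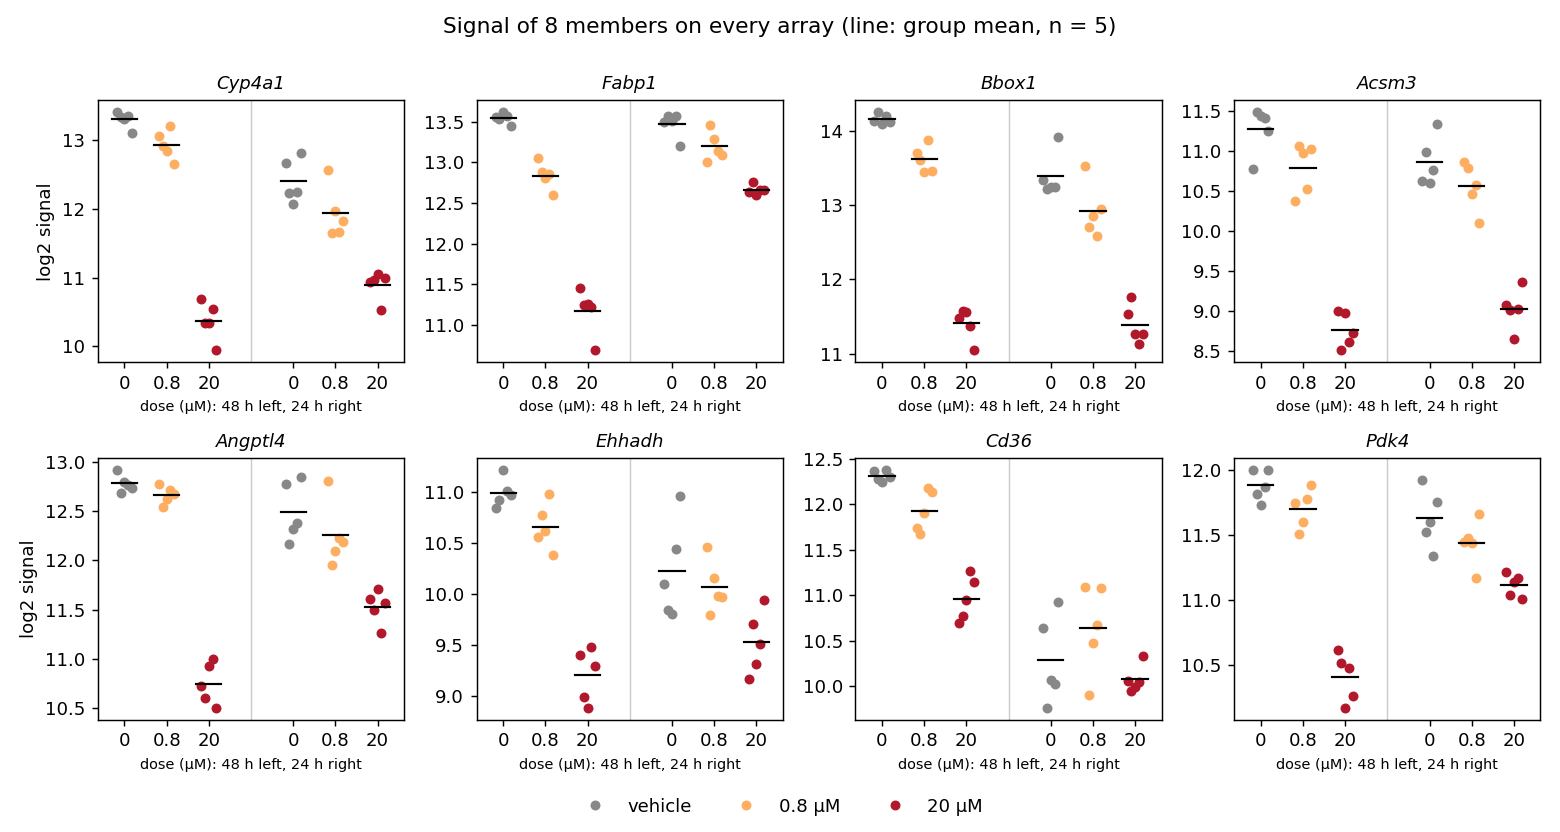
Log2 signal (vertical axes) of 8 members on every array against dose, with 48 h at the left and 24 h at the right of each panel. Points are single arrays (grey vehicle, orange 0.8 µM, red 20 µM) and lines are means of 5 arrays; Cyp4a1 averaged 10.37 at 20 µM, against 13.30 in vehicle at 48 h.

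The plot of single arrays shows how members differed in time. For Bbox1, Acsm3 and Cyp4a1 the arrays at 20 µM were clearly below vehicle at 24 h already, whereas for Cd36 and Pdk4 most of the distance was seen at 48 h.

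Of 6 tested carnitine genes, 4 fell at 48 h and 2 at 24 h, against 14.9% and 10.4% of all genes. Bbox1, the enzyme of the last step of carnitine synthesis, had log2 signals of 11.05, 11.37, 11.48, 11.57 and 11.57 at 20 µM, against 14.09, 14.12, 14.13, 14.19 and 14.25 in vehicle at 48 h. At 24 h the signals were 11.12, 11.27, 11.27, 11.54 and 11.76 at 20 µM, against 13.21, 13.24, 13.25, 13.33 and 13.91 in vehicle. The groups were far apart at both times. Bbox1 fell by 2.75 ± 0.14 at 48 h (6.72-fold, adjusted p = 2.67e-16) and fell by 2.00 ± 0.14 at 24 h (3.99-fold, adjusted p = 3.92e-12). The other Bbox1 probe set fell by 2.55 ± 0.12 at 48 h and fell by 1.67 ± 0.12 at 24 h.

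Cpt1a, which makes acylcarnitine on the outer mitochondrial membrane and sets the pace of the whole pathway, measured 9.84, 9.94, 10.07, 10.08 and 10.22 at 20 µM, against 10.54, 10.62, 10.76, 11.01 and 11.21 in vehicle at 48 h. The groups did not overlap at that time. Cpt1a fell by 0.80 ± 0.14 at 48 h (1.74-fold, adjusted p = 3.05e-05), and its change at 24 h was -0.17 ± 0.14 (adjusted p = 0.427). Its other probe set did not share the fall: the change there was -0.01 ± 0.12 at 48 h (adjusted p = 0.972), and the mean of both Cpt1a probe sets fell by 0.40 (adjusted p = 0.0049). The size of the Cpt1a change is uncertain between the probe sets.

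Changes of the other carnitine genes were smaller. Slc25a20, the carrier that exchanges acylcarnitine across the inner membrane, fell by 0.31 ± 0.08 at 48 h (adjusted p = 0.00375) and fell by 0.35 ± 0.08 at 24 h (adjusted p = 0.00165). Cpt2, which returns acyl groups to coenzyme A inside mitochondria, fell by 0.27 ± 0.08 at 48 h (adjusted p = 0.0058). With arrays centred on their medians, that change of Cpt2 was -0.23 and did not pass (adjusted p = 0.0762). Slc22a5, the carnitine importer of the plasma membrane, had a change of 0.06 ± 0.09 at 48 h, with a 95% interval from -0.12 to 0.24. Crat, the carnitine acetyltransferase, had a change of -0.05 ± 0.10 at 48 h, with an interval from -0.26 to 0.15. For Slc22a5 and Crat, changes as large as that of Bbox1 lie outside these intervals.

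In the mitochondrial spiral, all 11 members fell at 48 h and 9 fell at 24 h, against 14.9% and 10.4% of all genes. The median change of these 11 members was -0.59 at 48 h and -0.47 at 24 h. Acaa2, the thiolase that releases acetyl-CoA, fell most in this group: it measured 13.58, 13.82, 13.88, 13.91 and 13.95 at 20 µM, against 14.93, 14.99, 14.99, 15.04 and 15.07 in vehicle at 48 h. The groups were apart. Acaa2 fell by 1.18 ± 0.09 at 48 h (2.26-fold, adjusted p = 1.59e-12) and fell by 0.68 ± 0.09 at 24 h (adjusted p = 4.31e-07).

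The acyl-CoA dehydrogenases, which open the spiral, serve different chain lengths. Acadm, for medium chains, fell by 0.84 ± 0.09 at 48 h and fell by 0.55 ± 0.09 at 24 h. Acadvl, for very long chains, fell at both times, with changes of -0.59 ± 0.07 and -0.45 ± 0.07 at 48 and 24 h, and Acads, for short chains, with changes of -0.59 ± 0.06 and -0.48 ± 0.06. Acadl, for long chains, fell by 0.21 ± 0.06 at 48 h (adjusted p = 0.00422) and had a change of -0.15 ± 0.06 at 24 h (adjusted p = 0.061). The Acadl fall at 48 h did not pass with arrays centred on their medians (adjusted p = 0.0665).

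The hydratase and hydroxyacyl-CoA dehydrogenase steps fell as well. Hadh, the dehydrogenase for short and medium chains, fell by 0.86 ± 0.05 at 48 h (adjusted p = 5.06e-15) and fell by 0.73 ± 0.05 at 24 h (adjusted p = 1.91e-12). Echs1, the short-chain enoyl-CoA hydratase, fell at both times, with changes of -0.51 ± 0.07 and -0.47 ± 0.07 at 48 and 24 h. Decr1 and Eci1, which allow unsaturated chains to pass through the spiral, fell at both times: the changes of Decr1 were -0.96 ± 0.05 and -0.59 ± 0.05 at 48 and 24 h, and those of Eci1 were -0.60 ± 0.07 and -0.30 ± 0.07. The Eci1 probe set is of a kind that may share sequence with other transcripts.

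The subunits of the mitochondrial trifunctional protein, which acts on long chains, are given side by side. Hadha, the alpha subunit, measured 12.45, 12.53, 12.56, 12.57 and 12.60 at 20 µM, against 12.94, 12.96, 13.04, 13.06 and 13.17 in vehicle at 48 h. Hadhb, the beta subunit, measured 14.57, 14.61, 14.63, 14.64 and 14.72 at 20 µM, against 14.69, 14.72, 14.75, 14.76 and 14.78 in vehicle at 48 h. The Hadha groups were apart and the Hadhb groups overlapped. Hadha fell by 0.49 ± 0.05 at 48 h and fell by 0.37 ± 0.05 at 24 h. Hadhb fell by 0.11 ± 0.04 at 48 h (adjusted p = 0.0259) and had a change of -0.0022 ± 0.04 at 24 h (adjusted p = 0.978). The call for Hadhb at 48 h was lost with arrays centred on their medians, where the change was -0.07, under quantile normalization (adjusted p = 0.0667) and with the compared arrays alone (adjusted p = 0.0524). It was also lost without vehicle replicate 2 or 5 or replicate 2 or 3 at 20 µM, with adjusted p between 0.0519 and 0.0815. The difference between the subunits was not tested.

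Some members of the spiral had further probe sets, dimmer than the one used. A second Hadha probe set fell by 0.45 ± 0.14 at 48 h (adjusted p = 0.0157) and had a change of 0.06 ± 0.14 at 24 h. Another, with a mean log2 signal of 7.26, had changes of 0.82 ± 0.65 at 48 h and -0.31 ± 0.65 at 24 h, neither of which passed. The other Acaa2 probe set fell by 1.39 ± 0.19 at 48 h, and its change at 24 h was -0.46 ± 0.19 (adjusted p = 0.0773). Averaging all probe sets that passed the filter brought the changes of Hadha to -0.04 (adjusted p = 0.913) at 48 h and -0.21 (adjusted p = 0.569) at 24 h. For Eci1 the averaged change was -0.61 (adjusted p = 0.116) at 48 h and -0.48 (adjusted p = 0.272) at 24 h, and for Hadh it was -0.41 (adjusted p = 0.0713) at 24 h.

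Electrons from the dehydrogenases pass through the flavoprotein ETF to its ubiquinone oxidoreductase. The 4 members of electron transfer and ketone metabolism fell at 48 h, and 3 fell at 24 h, against 14.9% and 10.4% of all genes. Etfdh, the oxidoreductase, measured 12.80, 12.86, 12.88, 12.91 and 12.93 at 20 µM, against 13.62, 13.66, 13.72, 13.74 and 13.77 in vehicle at 48 h. The groups were apart, and Etfdh fell by 0.83 ± 0.05 at 48 h (adjusted p = 5.21e-14) and fell by 0.49 ± 0.05 at 24 h. The ETF subunit genes changed less: Etfa fell by 0.20 ± 0.04 at 48 h and had a change of -0.10 ± 0.04 at 24 h (adjusted p = 0.0647), and Etfb fell at both times, with changes of -0.18 ± 0.05 and -0.33 ± 0.05 at 48 and 24 h. The Etfb fall at 48 h did not pass with arrays centred on their medians (adjusted p = 0.11).

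Bdh1, which interconverts the ketone bodies acetoacetate and beta-hydroxybutyrate in mitochondria, measured 9.53, 9.77, 9.85, 9.90 and 9.95 at 20 µM, against 10.96, 11.30, 11.35, 11.51 and 11.54 in vehicle at 48 h. At 24 h Bdh1 measured 9.98, 10.21, 10.26, 10.33 and 10.37 at 20 µM, against 11.24, 11.26, 11.29, 11.33 and 11.59 in vehicle. The groups did not overlap at either time. Bdh1 fell by 1.53 ± 0.11 at 48 h (2.89-fold, adjusted p = 6.02e-13) and fell by 1.11 ± 0.11 at 24 h (2.16-fold, adjusted p = 2.69e-09), and its other probe set fell at both times with changes of -1.21 ± 0.13 and -0.98 ± 0.13.

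Genes around the members were taken from 5 further pathway lists. Of 30 tested genes of peroxisomal oxidation and peroxisome assembly, 19 fell at 48 h and 14 fell at 24 h, against 14.9% and 10.4% of all genes. In limma's test 0 rose at either time, against 20.3% of all genes at 48 h and 13.4% at 24 h. At an unadjusted p under 0.05 also 0 were higher, against 24.6% and 18.7% of all genes. Examples are Decr2, a peroxisomal dienoyl-CoA reductase, which fell by 1.34 ± 0.10 at 48 h and fell by 0.76 ± 0.10 at 24 h, and Acot4, a peroxisomal thioesterase, which fell at both times with changes of -1.33 ± 0.15 and -0.54 ± 0.15. Pecr, a trans-enoyl-CoA reductase, fell at both times with changes of -1.19 ± 0.07 and -0.82 ± 0.07, and Hacl1, which cleaves 2-hydroxy acids in alpha oxidation, fell at both times with changes of -1.17 ± 0.06 and -0.91 ± 0.06.

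Of 25 other PPARalpha targets, 14 fell at 48 h, where 1 rose, against 14.9% of all genes that fell and 20.3% that rose. At 24 h 11 fell and 4 rose (16%), against 10.4% and 13.4% of all genes. Slc27a5, a bile acid and very long chain acyl-CoA synthetase, fell by 1.99 ± 0.15 at 48 h and fell by 0.93 ± 0.15 at 24 h, and Vnn1, a pantetheinase, fell at both times with changes of -1.71 ± 0.15 and -0.66 ± 0.15. Cyp4a3, a relative of Cyp4a1, fell at both times with changes of -1.50 ± 0.11 and -0.81 ± 0.11, and Gpd1, the cytosolic glycerol-3-phosphate dehydrogenase, fell at both times with changes of -1.35 ± 0.08 and -0.94 ± 0.08. The gene of this list that rose at 48 h was Fads2, the fatty acid delta-6 desaturase, with 0.68 ± 0.25 (adjusted p = 0.0334). At 24 h Fads2, the fatty acid transporter Slc27a4, the malic enzyme Me1 and the acyl-CoA synthetase Acsl4 rose, with changes of 0.73, 0.54, 0.24 and 0.32. These genes are named here after their values were seen.

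Of 18 other dehydrogenases, synthetases and carnitine transporters, the counts were the same at both times: 9 fell (50%) and 1 rose (5.56%). Among all genes tested, 14.9% passed as lower and 20.3% as higher for 48 h, with 10.4% and 13.4% for 24 h. Acsm5, another medium-chain synthetase, fell by 1.48 ± 0.12 at 48 h and fell by 0.93 ± 0.12 at 24 h. Acad11, an acyl-CoA dehydrogenase, fell at both times with changes of -1.31 ± 0.07 and -0.85 ± 0.07. Acsm2, also a medium-chain synthetase, had changes of -1.14 ± 0.16 and -0.54 ± 0.16, and Gcdh, the glutaryl-CoA dehydrogenase of lysine breakdown, of -1.06 ± 0.08 and -0.86 ± 0.08, all passing the test. The riser at both times was Slc22a4, an organic cation transporter related to Slc22a5, with 0.26 at 48 h and 0.19 at 24 h, also named after its values were seen.

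Of 5 tested ketone body genes, 3 rose and 2 fell at 48 h, against 20.3% and 14.9% of all genes, and 2 rose and 1 fell at 24 h, against 13.4% and 10.4%. Acat1, the mitochondrial acetoacetyl-CoA thiolase, fell by 0.73 ± 0.06 at 48 h and fell by 0.41 ± 0.06 at 24 h. Oxct1, the enzyme with which other tissues consume ketone bodies, rose by 1.42 ± 0.16 at 48 h and 0.48 ± 0.16 at 24 h, and Bdh2, a cytosolic dehydrogenase, rose by 0.79 ± 0.10 and 0.44 ± 0.10. Slc16a6, a ketone body exporter, rose by 0.34 ± 0.06 at 48 h and had a change of 0.06 ± 0.06 at 24 h. The other gene that fell at 48 h was Slc16a1, a monocarboxylate transporter, with a change of -0.20 (adjusted p = 0.0369), named after its value was seen.

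Of 16 tested regulators and partners of PPARalpha and of carnitine palmitoyltransferase, 7 fell and 1 rose at 48 h, against 14.9% and 20.3% of all genes. At 24 h 2 fell (12.5%, beside 10.4% of all genes), and none rose in limma's test, while 1 was higher at an unadjusted p under 0.05, where 18.7% of all genes were. Acaca, whose product malonyl-CoA inhibits Cpt1a, fell by 1.17 ± 0.09 at 48 h and fell by 0.92 ± 0.09 at 24 h. Prkaa2 and Prkaa1, the catalytic subunits of AMP-activated kinase, fell at 48 h, with changes of -0.73 ± 0.15 and -0.65 ± 0.05, and at 24 h Prkaa1 fell by 0.19 ± 0.05 while the change of Prkaa2 was -0.03 ± 0.15. Ppargc1a, a coactivator of PPARalpha, fell by 0.42 ± 0.11 at 48 h and had a change of 0.0040 ± 0.11 at 24 h. The riser was Ncor1, a corepressor of nuclear receptors, with 0.15 (adjusted p = 0.0375), named after its value was seen.

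The low dose of 0.8 µM was compared with the same vehicle arrays. At 48 h, 4 of the 35 members fell and none rose, against 1.74% of all genes that fell and 1.59% that rose. At an unadjusted p under 0.05, 11 members were lower, against 6.86% of all genes, and 3 (Crat, Crot and Slc22a5) were higher, a share of 8.57% beside 8.68% of all genes. At 24 h no member passed limma's test in either direction, against 0.426% of all genes that fell and 0.4% that rose, while 15 members were lower and none higher at an unadjusted p under 0.05, where 5.56% of all genes were lower and 6.22% higher. The median member change was -0.11 at 48 h and -0.14 at 24 h, beside 0.01 for all genes at both times. At 24 h the number of changed members rested on single arrays: without replicate 1 at 0.8 µM it was 3 (Cyp4a1, Bbox1 and Acaa2, all lower), and without vehicle replicate 1 it was 1 (Hadh, lower). Without vehicle replicate 2 it remained 0.

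Fabp1 had the largest change among the members at 0.8 µM. Its log2 signals at 48 h were 12.60, 12.81, 12.85, 12.88 and 13.05 at 0.8 µM, all below the vehicle arrays, whose lowest value was 13.45. Fabp1 fell by 0.71 ± 0.10 at 48 h (1.63-fold, adjusted p = 3.13e-05), and its change at 24 h was -0.27 ± 0.10 (adjusted p = 0.221).

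Bdh1 measured 10.49, 10.71, 10.76, 10.80 and 11.05 at 0.8 µM at 48 h, overlapping the lowest vehicle array (10.96), and fell by 0.57 ± 0.11 (adjusted p = 0.00218). Bbox1 measured 13.45, 13.46, 13.61, 13.70 and 13.88 at 0.8 µM, below all vehicle arrays, and fell by 0.54 ± 0.14 (adjusted p = 0.028). Hadhb measured 14.51, 14.55, 14.63, 14.63 and 14.63 at 0.8 µM, also below all vehicle arrays, and fell by 0.15 ± 0.04 (adjusted p = 0.0195). The falls of Fabp1 and Bdh1 also passed an adjusted p of 0.01, and those of Bbox1 and Hadhb did not. Both were also lost with arrays centred on their medians and without replicate 3 at 0.8 µM, where 2 of the 4 members passed at 48 h. Bbox1 was lost as well without replicate 2 or 5 at 0.8 µM, without vehicle replicate 2 or 4 and without an intensity trend in the variance, and Hadhb when only the compared arrays entered the test.

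**Figure D3:**
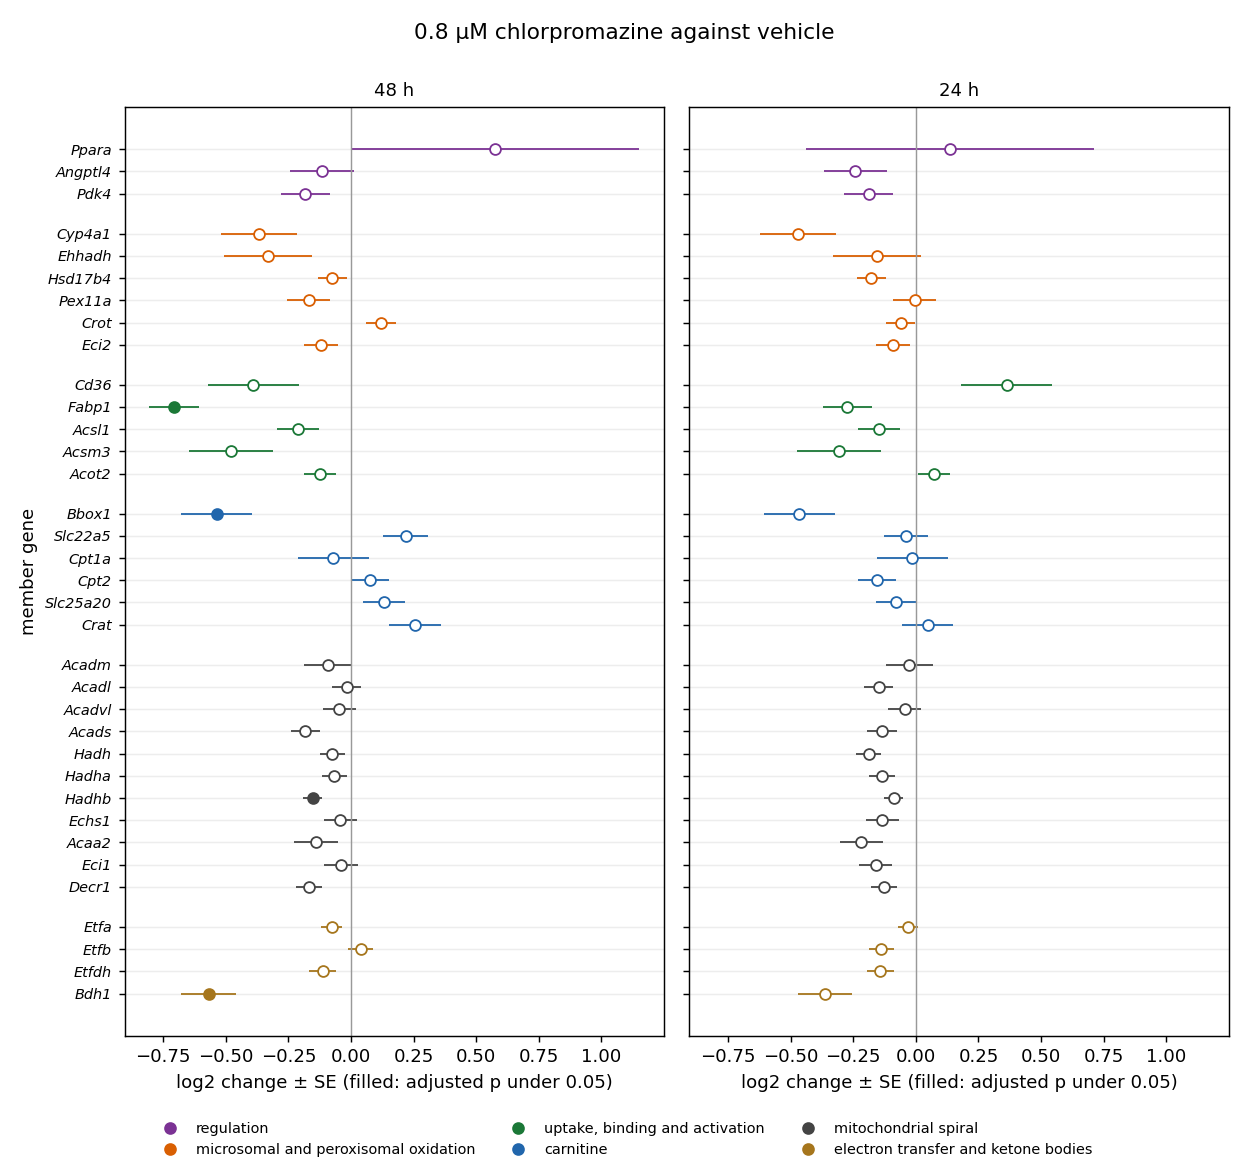
Change of each of the 35 tested members (rows, coloured by role) at 0.8 µM chlorpromazine against vehicle, at 48 h (left) and 24 h (right). Points are log2 changes with standard errors and filled points have an adjusted p under 0.05; the 4 filled points are Fabp1, Bbox1, Bdh1 and Hadhb at 48 h, and none is filled at 24 h.

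The plot of changes at 0.8 µM shows small changes for most members. At 48 h they ran from -0.71 for Fabp1 to 0.58 for the dim Ppara, and at 24 h from -0.47 for Cyp4a1 to 0.36 for Cd36, whose arrays at 0.8 µM overlapped vehicle.

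Set directly against 0.8 µM, cultures at 20 µM had 30 of 35 members lower at 48 h, against 12.4% of all genes, and 24 lower at 24 h, against 6.94%. These comparisons share arrays with those against vehicle and are not independent of them. Cyp4a1 had changes of -2.57 ± 0.15 at 48 h and -1.04 ± 0.15 at 24 h at 20 µM against 0.8 µM. Those of Bbox1 were -2.21 ± 0.14 and -1.53 ± 0.14, and those of Fabp1 were -1.66 ± 0.10 and -0.53 ± 0.10, all passing the test. With arrays centred on their medians, 17 members were lower at 24 h. Hadhb, which fell at both doses against vehicle at 48 h, had a change of 0.05 ± 0.04 between the doses (adjusted p = 0.437).

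**Figure D4:**
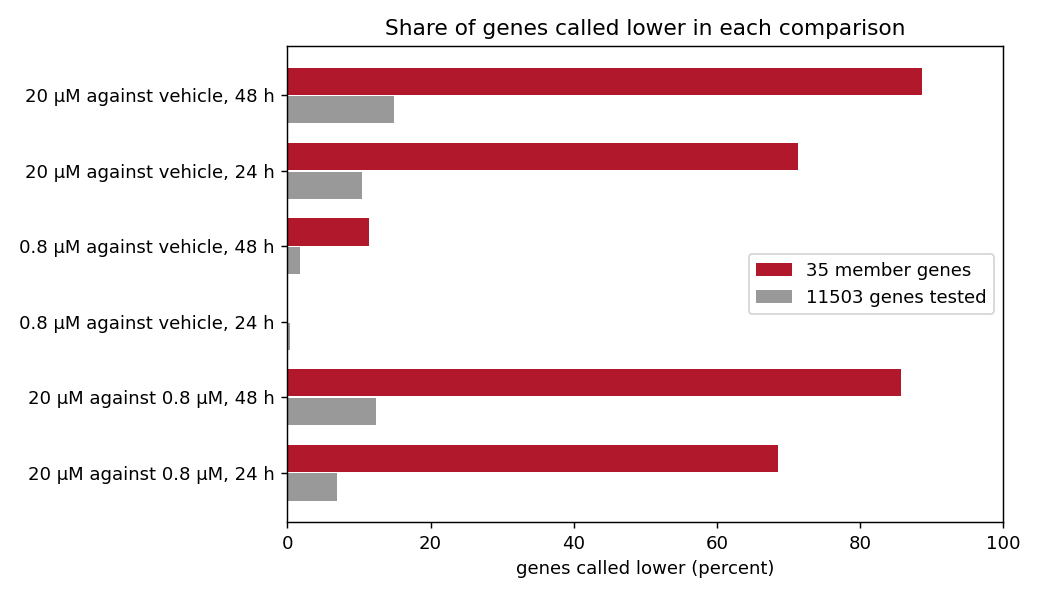
Percent of genes called lower (adjusted p under 0.05, horizontal axis) in each comparison, for the 35 tested members (red) and all 11503 tested genes (grey). At 20 µM against vehicle at 48 h the bars are 88.6% for members and 14.9% for all genes, and at 0.8 µM at 24 h they are 0% and 0.426%.

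The plot of shares sets each count of members beside the share of all genes. Of the 35 members, 88.6% fell at 20 µM at 48 h and 71.4% at 24 h, and 11.4% fell at 0.8 µM at 48 h.

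The effect of 20 µM differed between the times for 12 of the 35 members, all with a more negative change at 48 h than at 24 h and none the other way, against 2.43% of all genes with a more negative and 1.78% with a more positive change. At an unadjusted p under 0.05, 19 members were more negative, against 7.89% of all genes, and 1, Etfb, was more positive, against 8.62%. Fabp1 had the largest difference, -1.56 ± 0.14 (adjusted p = 4.18e-09), followed by Cyp4a1 with -1.42 ± 0.21 (adjusted p = 6.63e-05). Cd36, Ehhadh, Angptl4 and Pdk4 differed by -1.14 ± 0.26, -1.08 ± 0.25, -1.07 ± 0.18 and -0.96 ± 0.14. Bbox1 differed by -0.75 ± 0.20 (adjusted p = 0.0233), a call that was lost without vehicle replicate 2 or 3 at 24 h, replicate 2 at 20 µM and 24 h or replicate 5 at 20 µM and 48 h. Acaa2, Eci2, Decr1, Etfdh and Hsd17b4 differed by between -0.50 and -0.33. With arrays centred on their medians 9 members passed, with Hsd17b4, Acaa2 and Etfdh lost, and at an adjusted p under 0.01 also 9, with Bbox1, Hsd17b4 and Acaa2 lost. For Acsm3 the difference was -0.67 ± 0.24 and did not pass the test (adjusted p = 0.115). Of the members that fell at 48 h only, Cd36 passed this test. Cpt1a did not (-0.62 ± 0.20, adjusted p = 0.0764), nor did Cpt2, Acadl, Hadhb and Etfa, for which the difference lay between -0.11 and -0.06.

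Vehicle cultures themselves changed between the times. Of the members, 9 were higher and 2 lower at 48 h than at 24 h, against 6.48% and 6.7% of all genes. Cd36 rose most: its vehicle arrays lay between 12.25 and 12.38 at 48 h, against 9.76 to 10.92 at 24 h, a rise of 2.04 ± 0.18 (4.10-fold, adjusted p = 2.41e-09). Cyp4a1 rose by 0.90 ± 0.15, Bbox1 by 0.77 ± 0.14 and Ehhadh by 0.77 ± 0.18. Pex11a, Decr1, Acaa2, Etfdh and Hadhb rose by between 0.21 and 0.35, and Slc22a5 and Cpt2 were lower, with changes of -0.31 ± 0.09 and -0.26 ± 0.08. Without vehicle replicate 5 at 24 h, 17 members in place of 11 changed, with Angptl4, Hsd17b4, Acadm, Eci1, Eci2 and Acsm3 added. The Acaa2 call was lost on leaving out any single vehicle array other than replicate 5 at 24 h or replicate 3 at 48 h, and with no filter on low signals, all probe sets averaged or no intensity trend in the variance. That of Cpt2 was lost without replicate 1 at 24 h or replicate 2 or 3 at 48 h, and that of Slc22a5 without replicate 3 at 48 h. With arrays centred on their medians, or at an adjusted p under 0.01, 8 members changed, with these 3 lost and none lower.

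The members with a time-dependent effect of 20 µM can thus be set beside their vehicle levels. Bbox1 averaged 11.41 ± 0.22 at 48 h and 11.39 ± 0.25 at 24 h in cultures at 20 µM (SD, n = 5 each), while in vehicle it averaged 14.16 ± 0.06 at 48 h and 13.39 ± 0.29 at 24 h. Cd36 averaged 10.96 ± 0.24 at 48 h and 10.07 ± 0.15 at 24 h at 20 µM, against 12.32 ± 0.05 and 10.28 ± 0.48 in vehicle. Fabp1 averaged 11.18 ± 0.29 at 48 h and 12.66 ± 0.06 at 24 h at 20 µM, against 13.55 ± 0.06 and 13.47 ± 0.16 in vehicle. Levels of Bbox1 at 20 µM were thus close at both times, those of Cd36 were higher at 48 h and those of Fabp1 lower, none of which was tested within the 20 µM cultures. In vehicle the change of Fabp1 between the times was 0.08 ± 0.10 (adjusted p = 0.709).

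**Figure D5:**
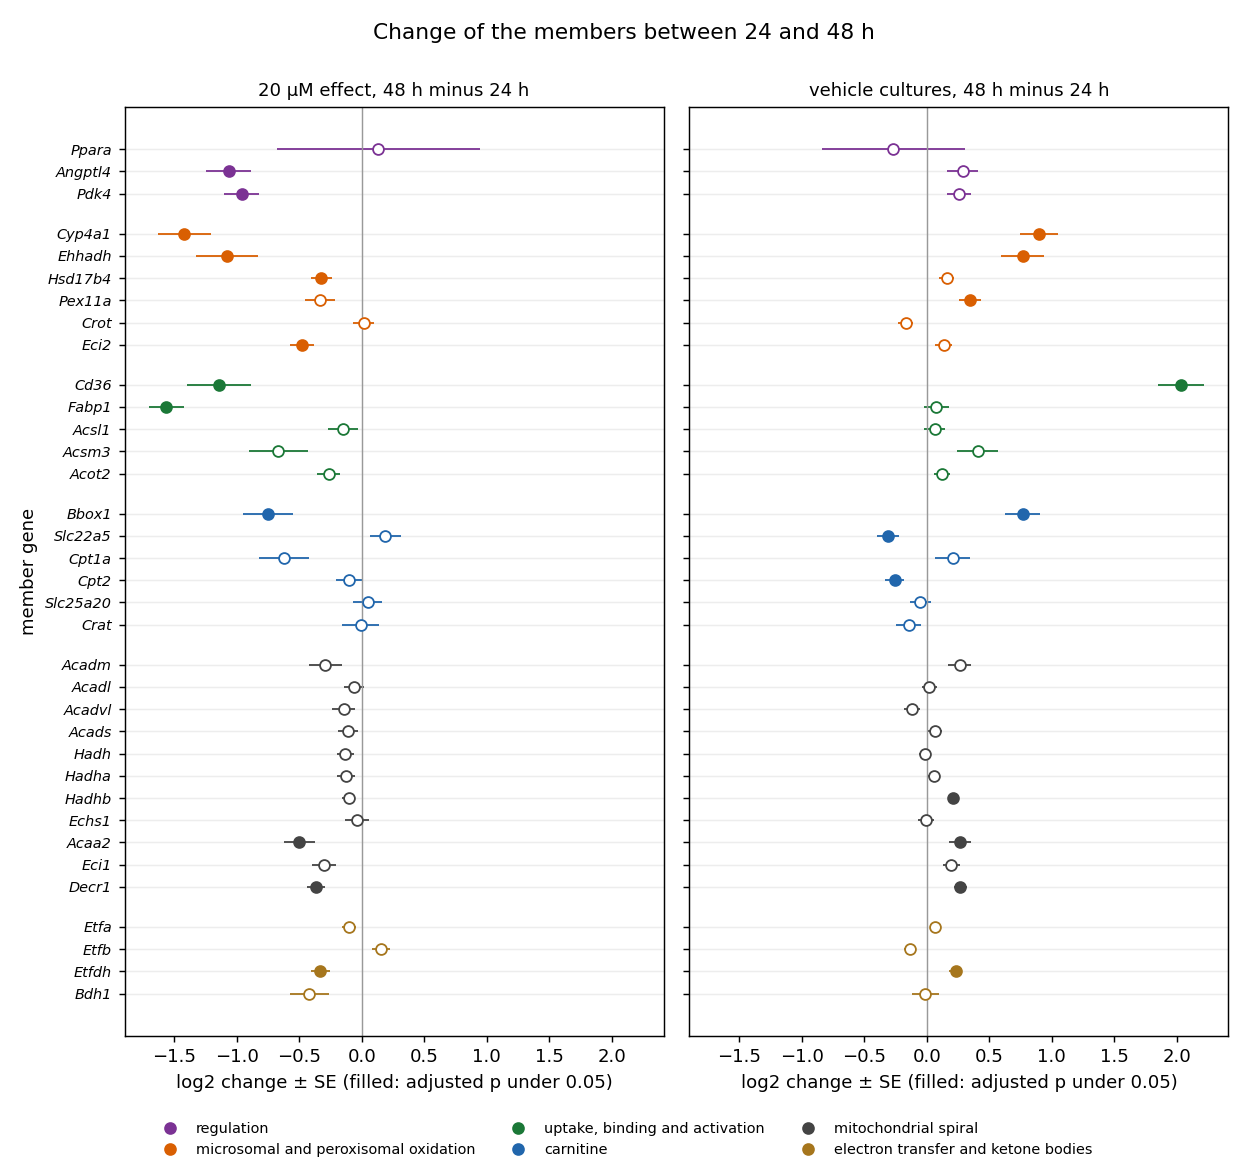
Left, difference between the 20 µM effects at 48 and 24 h for each of the 35 tested members. Right, change of the same members in vehicle cultures at 48 h against 24 h; points are log2 values with standard errors, filled where the adjusted p is under 0.05. Cd36 has the largest rise in vehicle (2.04) and Fabp1, with 0.08 in vehicle, the most negative difference of effects (-1.56).

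The plot of changes over time shows that members with a filled point on the left include some with a rise in vehicle, such as Cd36, Cyp4a1, Bbox1 and Ehhadh. Others had no vehicle rise that passed the test, such as Fabp1, Angptl4, Pdk4, Eci2 and Hsd17b4. Of these, Angptl4, Pdk4, Hsd17b4 and Eci2 had vehicle changes of 0.29, 0.26, 0.16 and 0.14 (adjusted p between 0.0715 and 0.209 in limma's test). The vehicle change of Acaa2, which passed, was 0.26, so this division rests on the threshold for these genes.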

How the data were processed

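RNA from 30 wells of rat hepatocytes was measured on a rat oligonucleotide array. The deposited values are linear intensity values (signal) per probe set, made by the authors with MAS5, per the submitters' processing notes; its settings are not given in the sources used here. The mean signal of an array, taken without its lowest and highest values, was 1500 on all 30 arrays. The deposited signals had thus been scaled to a common level. Arrays were not normalized further. Signals were floored at 16 and taken to log2, and a probe set was kept where 5 or more arrays gave it a signal over that array's 40th percentile. Of 31099 probe sets, 20826 had 1 symbol in the platform annotation, updated by Entrez identifier to the RefSeq gene table of build GRCr8. The kept probe set with the highest mean stood for its gene. A linear model of the 6 group means was fitted to all 30 arrays (limma 3.58.1, R 4.3.3) with trended moderation of the variances, and p-values were adjusted by Benjamini and Hochberg's method across the genes tested. The procedure was tested on simulated data. The number of arrays, 5 per group, limits the precision. Intervals of changes are 95% intervals of the fit.

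Members, pathway lists and tests were chosen with earlier results of these data known. All members were described, and of each pathway list up to 4 genes with the largest change that passed at 48 h at 20 µM. Alternatives were the floor, the filter, centring or quantile normalization, the fit, the choice of probe set, the threshold, sets of 6 array numbers as a block, and each array left out. Each probe set tested on its own was added after seeing the data.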

Additional observations from a re-analysis of the deposited data

Results flagged for a closer look

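Differences of the 20 µM effect between 48 and 24 h, tested as the interaction in limma, passed for 12 members, and for 9 with arrays centred on their medians, where Acaa2, Etfdh and Hsd17b4 were lost. On the log2 scale they were -1.56 for Fabp1, -1.42 for Cyp4a1, -1.14 for Cd36, -1.08 for Ehhadh, -1.07 for Angptl4, -0.96 for Pdk4, -0.75 for Bbox1, -0.50 for Acaa2, -0.48 for Eci2, -0.37 for Decr1, -0.33 for Etfdh and -0.33 for Hsd17b4.

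Single arrays stood apart from the others of their group in 10 of 210 combinations of member and group, where chance gives about 1 in 20 groups of 5. At 20 µM these were the lowest arrays for Acads (12.14) and Acot2 (12.21) at 48 h, the lowest for Cyp4a1 (10.52) at 24 h and the highest for Pex11a (13.38) at 24 h. At 0.8 µM and 24 h it was the highest array for Eci1 (14.90). In vehicle they were the lowest array for Acsl1 (12.92) at 48 h, the lowest for Crot (13.67) and Fabp1 (13.20) at 24 h, and the highest for Bbox1 (13.91) and Bdh1 (11.59) at 24 h.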

How the results depend on the processing

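Of 1538 values of single members at 20 µM under other settings, 1481 kept their direction and side of the threshold, 30 were no longer past it, 9 passed anew and 18 changed sign, all of the last on changes that had not passed. The count at 0.8 µM and 48 h was 2 with arrays centred on their medians and 2 at an adjusted p under 0.01, with Bbox1 and Hadhb lost. Leaving out single arrays gave 2 to 5 members at 0.8 µM at 48 h and 0 to 3 at 24 h, 30 to 31 and 23 to 27 at 20 µM, 11 to 14 for the difference between times and 10 to 17 in vehicle over time. Centring on medians and an adjusted p under 0.01 each gave 9 for the difference between times and 8 in vehicle over time. At 20 µM the count was 27 at 48 h and 23 at 24 h with arrays centred on their medians, 27 and 22 with all probe sets of a gene averaged, and 31 and 26 with sets of 6 consecutive array numbers as a block.

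Among changes that did not pass, signs turned at 24 h for Crat (0.0154) and Hadhb (0.0562) with arrays centred on their medians and for Hadhb (0.0352) under quantile normalization. With single arrays left out, the change at 24 h ran from -0.449 to 0.2204 for Ppara, from -0.1103 to 0.03523 for Crat and from -0.02033 to 0.01331 for Hadhb. At 48 h it ran from -0.3269 to 0.2942 for Ppara and from -0.01158 to 0.1222 for Slc22a5. The causes were not tested. Mean correlation of residuals was 0.0224 between arrays of 1 set of consecutive numbers and -0.00558 between sets. Signals near background limit what can be said of Ppara and Acot1.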
